A study of Mus musculus with 20 samples.

Results

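The glutathione S-transferases, UDP-glucuronosyltransferases and sulfotransferases of mouse small intestine were followed across 2 ages and 2 kinds of dam. Members were taken by gene symbol alone: the cytosolic and kappa-class Gst genes, Mgst1 to Mgst3, the Ugt1a, Ugt2a, Ugt2b and Ugt3a genes, and the Sult genes with a family number, a letter and a gene number. The rule found 67 of the 55487 mouse genes in the count table, namely 22 Gst, 3 Mgst, 21 Ugt and 21 Sult genes on 12 chromosomes. Of these, 47 passed the filter on low counts and were tested.

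Tissue labelled as small intestine was measured in bulk, by sequencing its polyA RNA, and whether the whole length or a part was taken is not stated. Control pups were born to control dams, and periodontitis pups to dams with periodontitis, an inflammatory disease of the tissue around the teeth. Each kind of pup was sampled at 2 weeks, when pups suckle, and at 7 weeks, after weaning, with 5 libraries in each of the 4 groups. All groups are described as small intestine, and the labels give no strain, genotype, sex, litter, segment of the intestine or collection day. Nothing in them says that libraries of a group came from separate litters, so p-values measure the spread between these samples.

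These enzymes carry out the conjugation step of detoxification. Glutathione transferases join glutathione to reactive compounds, glucuronosyltransferases join glucuronic acid from UDP-glucuronic acid, and sulfotransferases join sulfate from the donor PAPS, which makes their substrates more soluble and readier for export. In the small intestine they act mainly in enterocytes, on food compounds, drugs, bile acids, steroids and products of lipid oxidation, before these reach the blood.

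Total counts were 14882204 to 42563229 per library, and levels are given as CPM, counts scaled to a library of 1000000. Control library 5 at 2 weeks was the shallowest and stood apart from its group in many genes. Periodontitis library 5 at 7 weeks also stood apart, and results that rest on either are given with and without it. The enterocyte marker list was present in every library, at 27306 to 111631 CPM summed over its 12 genes, including Vil1, Fabp2 and Alpi. Summed exocrine pancreas markers were 154 to 1727 CPM in the 2-week libraries and 5.58 to 11.6 CPM in the 7-week libraries, and summed stomach markers were 6.95 to 519 CPM against 0.049 to 0.376 CPM. Markers of tissue next to the intestine were thus present in unequal amounts at 2 weeks, and the part of such tissue in the results was not tested. In bulk tissue, fewer cells of a type and less RNA per cell cannot be told apart.

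Many of these genes lie in tandem clusters, which limits how reads can be assigned. The 9 Ugt1a genes span chr1:88055388-88220002 (GRCm38, plus strand), and each has a first exon of its own joined to last exons that all share. The 7 Gstm genes lie at chr3:107895821-108044894, 4 Gstt genes at chr10:75774115-75837424, and the Gstp genes at chr19:4035407-4059569. The Ugt2b and Ugt2a genes, with Sult1b1, Sult1d1 and Sult1e1, lie within chr5:86889767-87591594, and 8 Sult2a genes within chr7:13623967-14494230. Of all 50-base stretches in the exons of Gsta1, 90.5% also occur in Gsta2, Gm3776 or Gm10639. The share was 54.3% for Gstp2, 33.7% for Gstp1, 41.7% for Ugt2b5 and 80.2% for Ugt1a1. It was 28.8% for Gstm3 and 18.9% for Gstm1. Levels of these genes are therefore uncertain one by one. Sums over the groups of Ugt1a, Gsta1, Gstp1 and Ugt2b5 were fitted as well, and no sum was fitted for the Gstm genes.

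Promoter windows of 250 bases before the start were present for 59 members in the RefSeq table (71 windows, GRCm38.p6). They were searched on both strands, and a match is a run of letters and not evidence of binding. The letters GTTAAT, 1 arm of the palindromic site of the intestinal and hepatic factor HNF1, occurred in 14 of the 71 windows (19.7%) and in 6.43% of the 32851 windows of all genes. This motif was added after the full HNF1 consensus was found in 0 member windows and in 3 of all windows. TGACNNNGC, the core of the antioxidant response element, occurred in 4 member windows (5.63%, all genes 10.2%), those of Gsta3, Gstm5, Gstm7 and Mgst1. GCGTG, the core of the xenobiotic response element, occurred in 12 (16.9%, all genes 28.2%), and TATAAA in 14 (19.7%, all genes 12.4%). GTTAAT and the full consensus overlap in their letters.

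Stretches before the start are shown for 4 glucuronosyltransferases whose rises with age are described below, and for Gsta3, the member that held both GTTAAT and TGACNNNGC. They come from chr1:88211859-88211958 (Ugt1a1, plus strand), chr1:88134709-88134808 (Ugt1a6a, plus), chr1:88070679-88070778 (Ugt1a9, plus), chr5:87337196-87337295 (Ugt2a3, minus) and chr1:21240425-21240484 (Gsta3, plus). Capitals mark GTTAAT or its reverse complement ATTAAC, and in Gsta3 also TGACATTGC.
Ugt1a1: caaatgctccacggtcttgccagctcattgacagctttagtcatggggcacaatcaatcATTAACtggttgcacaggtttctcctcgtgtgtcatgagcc
Ugt1a6a: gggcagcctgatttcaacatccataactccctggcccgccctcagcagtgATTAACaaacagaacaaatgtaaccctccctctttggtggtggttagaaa
Ugt1a9: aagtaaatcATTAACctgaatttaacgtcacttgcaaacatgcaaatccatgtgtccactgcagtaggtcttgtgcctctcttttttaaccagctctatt
Ugt2a3: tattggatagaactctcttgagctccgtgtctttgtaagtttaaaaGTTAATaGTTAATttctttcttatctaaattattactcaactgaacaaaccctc
Gsta3: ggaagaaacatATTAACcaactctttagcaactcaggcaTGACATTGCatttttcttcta
Counting the base before the start as -1, the match began at -41 in Ugt1a1, at -50 in Ugt1a6a and at -91 in Ugt1a9, and in Ugt2a3 a pair of matches began at -54 and -47. The other 9 members with GTTAAT were Sult1a1, Sult1d1, Sult2a3 to Sult2a6, Sult3a2, Ugt1a10 and Ugt3a1, of which Sult1a1 and Sult1d1 passed the filter on low counts.

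Conjugation genes were higher at 7 weeks than at 2 weeks in both kinds of pups. In control pups 36 of the 47 tested members rose and 4 fell (edgeR quasi-likelihood test, Benjamini-Hochberg adjusted p under 0.05). Over all 17464 genes tested, 27.1% rose and 34.4% fell (61.5% in either direction). The median log2 fold change was 1.69 over the members and -0.13 over all genes. In periodontitis pups 37 rose and 6 fell, against 30.4% and 35.7% of all genes (66.1% in either direction), with medians of 2.42 and -0.11. The age comparisons share no library: 35 members rose in both, 4 fell in both, 0 were called in opposite directions, 1 was called in control pups only, 4 in periodontitis pups only and 3 in neither. The 5 libraries of each age did not overlap for 32 members that were higher at 7 weeks in control pups (all genes, 22.5%) and for 32 in periodontitis pups (24.9%). In the other direction there were 2 such members in each kind of pup (all genes, 23.2% and 28.3%).

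**Figure D1:**
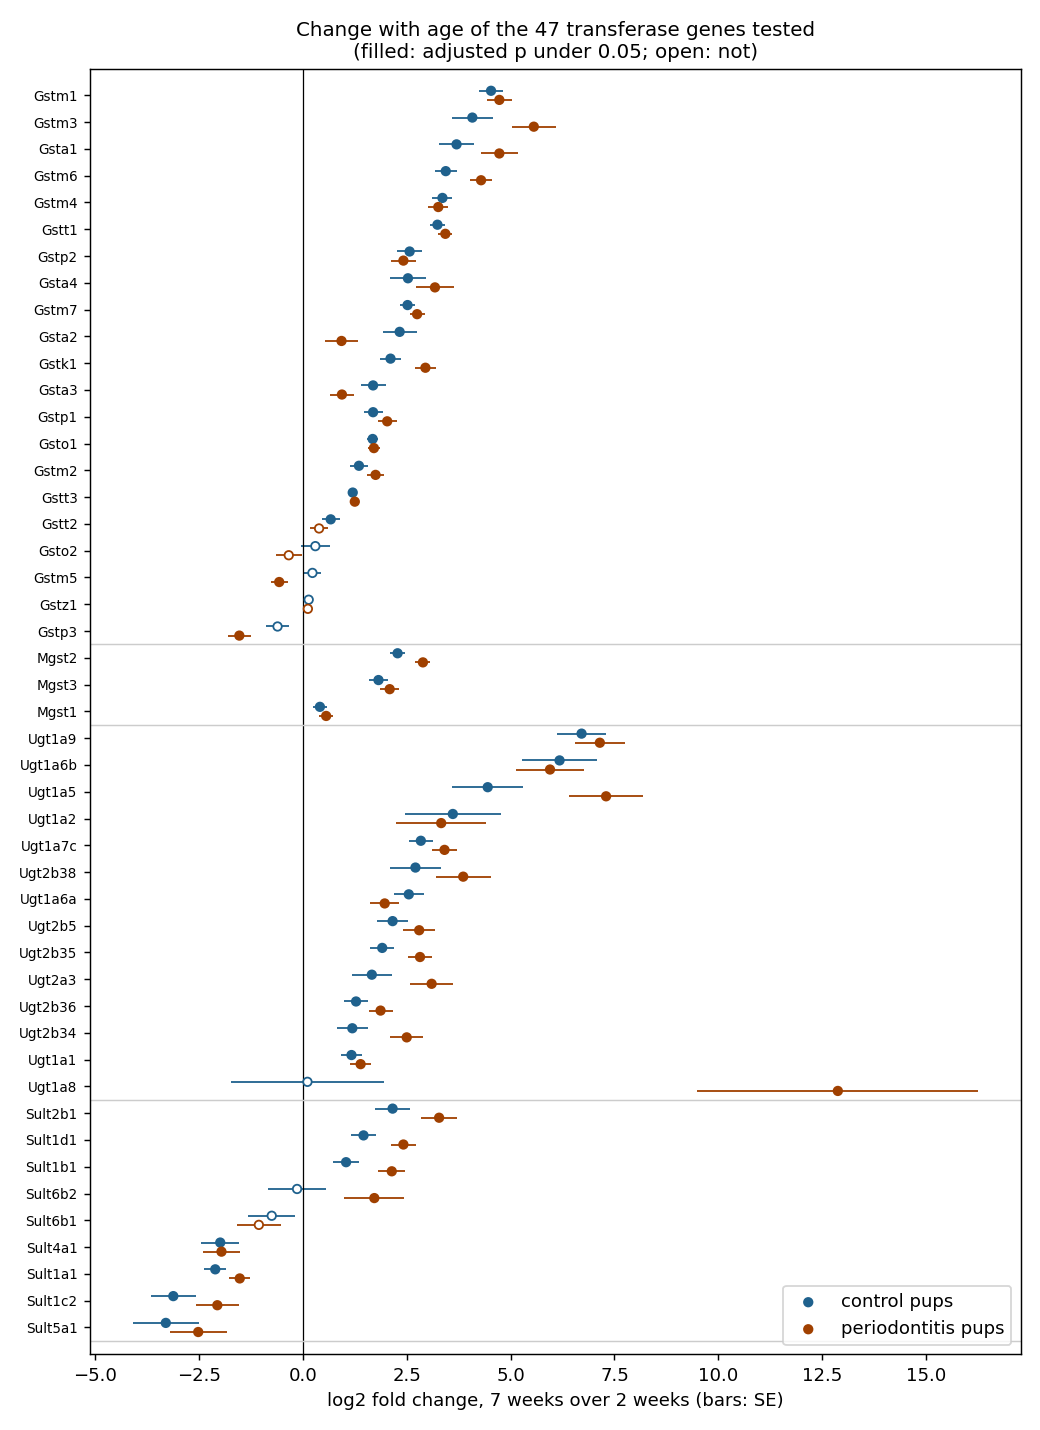
Log2 fold change of 7 weeks over 2 weeks (horizontal axis, bars are SE) for the 47 tested members, in control pups (blue) and periodontitis pups (brown), grouped as Gst, Mgst, Ugt and Sult genes. Filled points passed an adjusted p of 0.05; nearly all Gst, Mgst and Ugt points lie right of 0, while the Sult points fall on both sides.

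The mu-class and alpha-class glutathione transferases are the main cytosolic enzymes of this family, and Gstm1, Gstm3 and Gsta1 had the largest rises among the Gst genes in control pups. Gstm1 was at 36.2, 36.9, 43.8, 51.9 and 32.8 CPM in the 5 control libraries at 2 weeks and at 1249, 1040.2, 515, 869 and 987 CPM at 7 weeks. Every 7-week library was above every 2-week library, and the fitted rise was 23.1-fold (log2 4.53 ± 0.30 SE, edgeR adjusted p = 2.55e-09). In periodontitis pups Gstm1 rose 26.5-fold (log2 4.73 ± 0.30). Gstm3 rose from 98.5 ± 33.2 to 1666 ± 402 CPM in control pups (SD, n = 5; log2 4.08 ± 0.49, edgeR adjusted p = 1.67e-06) and from 33.6 ± 28.8 to 1586 ± 518 CPM in periodontitis pups (log2 5.56 ± 0.53). All 7 Gstm genes passed the filter and 6 of them rose in both kinds of pups. Gstm4 and Gstm6 rose 10.3-fold and 10.9-fold in control pups, and Gstm7 and Gstm2 by log2 2.52 ± 0.18 and 1.35 ± 0.21. Gstm5 was the exception, at 12.8 CPM at 2 weeks and 15.1 CPM at 7 weeks in control pups (log2 0.23 ± 0.20, edgeR adjusted p = 0.324). In periodontitis pups it fell from 23.4 ± 7.28 to 15.7 ± 2.88 CPM (log2 -0.57 ± 0.20, edgeR adjusted p = 0.015), and the adjusted p was 0.0527 without periodontitis library 3 at 2 weeks and 0.051 without library 5.

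Gsta1 had 52.2, 60.2, 65.7, 110.3 and 132 CPM in the control libraries at 2 weeks and 1060.3, 1295, 982, 997 and 1135 CPM at 7 weeks. The ages did not overlap, and the rise was 13.0-fold (log2 3.70 ± 0.43, edgeR adjusted p = 1.18e-06). Gm3776, a gene that shares sequence with Gsta1 and is not a member, stood at 10.4 to 114 CPM and 712 to 1079 CPM in the same libraries. The sum of Gsta1, Gsta2, Gm3776 and Gm10639, in which reads of these near copies are pooled, rose by log2 3.81 ± 0.40 in control pups and 4.48 ± 0.41 in periodontitis pups. Gsta4, which conjugates the lipid oxidation product 4-hydroxynonenal and shares none of its 50-base stretches with other genes, rose from 68.6 ± 39.1 to 396 ± 62.7 CPM (log2 2.53 ± 0.44). Gsta2 and Gsta3 also rose in both kinds of pups, in control pups by log2 2.33 ± 0.41 and 1.69 ± 0.30. The rise of Gsta2 in periodontitis pups (log2 0.93 ± 0.39, edgeR adjusted p = 0.0411) missed the threshold in 8 of the alternative fits, among them those without periodontitis library 1, 2 or 5 at 2 weeks and library 3 or 5 at 7 weeks.

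The other classes held both strong rises and genes that were not called. Gstt1, of the theta class, rose 9.45-fold in control pups (log2 3.24 ± 0.17, edgeR adjusted p = 1.96e-10), Gstt3 by log2 1.20 ± 0.11 and Gstt2 by log2 0.67 ± 0.22. Gstt2 was not called in periodontitis pups (log2 0.39 ± 0.22), and was called there without control library 5 at 2 weeks (edgeR adjusted p = 0.0015). Gstp1, the best known pi-class enzyme, rose by log2 1.69 ± 0.23 and Gstp2 by 2.57 ± 0.30, and their sum with the pseudogene Gstp-ps rose by 1.90 ± 0.24. Gsto1, the omega-class enzyme that reduces dehydroascorbate, rose from 338 ± 33.5 to 1083 ± 76.0 CPM. Gstk1, the kappa-class enzyme of mitochondria and peroxisomes, rose from 32.0 ± 11.1 to 138 ± 21.7 CPM. Gstz1, which acts in tyrosine breakdown rather than detoxification, stood between 34.7 and 47 CPM in all 20 libraries (log2 0.14 ± 0.10, edgeR adjusted p = 0.23, in control pups). Gsto2 was under 1 CPM in every library and was not called in either comparison of ages. Gstp3 fell in periodontitis pups, from 10.2, 8.35, 19.7, 21.2 and 20.3 CPM to 3.54, 4.14, 4.82, 6.85 and 8.27 CPM (log2 -1.53 ± 0.28, edgeR adjusted p = 0.000114). In control pups its means were 7.52 and 4.95 CPM (log2 -0.61 ± 0.28, edgeR adjusted p = 0.0667, and 0.0272 without control library 5 at 2 weeks).

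The membrane-bound Mgst enzymes, which handle glutathione conjugation and lipid peroxides in microsomes, rose in all 3 genes and in both kinds of pups. In control pups Mgst2 rose by log2 2.28 ± 0.18, Mgst3 by 1.82 ± 0.23 and Mgst1 by 0.41 ± 0.17 (edgeR adjusted p = 0.0443 for Mgst1). The rise of Mgst1 in control pups missed the threshold in 14 of the alternative fits, and its ages overlapped. Mgst3 was at 230, 228, 252, 253 and 82.0 CPM in the control libraries at 2 weeks and between 686 and 782 CPM at 7 weeks, so that the ages did not overlap.

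Glucuronosyltransferases rose in the Ugt1a, Ugt2a and Ugt2b subfamilies, and no Ugt3a gene passed the filter. In control pups 13 of 14 tested Ugt genes rose and 0 fell (all genes 27.1% and 34.4%), and in periodontitis pups 14 of 14 rose (all genes 30.4%). Ugt1a9, an enzyme for phenolic compounds, was nearly silent at 2 weeks, at 1.74, 1.04, 1.23, 1.78 and 0.966 CPM in control libraries, and stood at 78.3, 211, 112, 173 and 154 CPM at 7 weeks. This was the largest rise among members with at least 1 CPM, 105-fold (log2 6.71 ± 0.59, edgeR adjusted p = 5.2e-08). In periodontitis pups it rose from 1.07, 1.28, 2.74, 1.3 and 0.581 CPM to 23.0, 183, 284, 170.4 and 328 CPM. The ages did not overlap in either kind of pup, and periodontitis library 1 at 7 weeks was far below the other 4. Ugt1a1, the enzyme that conjugates bilirubin, was high at both ages and rose from 274 ± 51.7 to 619 ± 73.6 CPM (log2 1.17 ± 0.25). Ugt1a7c rose from 97 ± 37.1 to 692 ± 132 CPM (log2 2.84 ± 0.29), and Ugt1a6a by log2 2.55 ± 0.36. Ugt1a6b had 6 counts in all control libraries at 2 weeks and 304 at 7 weeks, and Ugt1a5 had 6 and 96, so both rose from near 0 and their fitted fold changes are imprecise. Ugt1a2 rose from 20 to 155 counts, and its rise in periodontitis pups missed the threshold without library 4 at 7 weeks.

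Because all 9 Ugt1a genes share their last exons (58.9% of the exon length of Ugt1a1), the locus was also fitted as a sum. The 5 control libraries held 391, 365, 409, 399 and 429 CPM at 2 weeks and 1391, 1566, 1510.4, 1516 and 1718 CPM at 7 weeks. The sum rose by log2 1.95 ± 0.19 in control pups (edgeR adjusted p = 1.91e-07) and 2.48 ± 0.20 in periodontitis pups. Sums varied little within the 7-week groups, and the split between genes varied more. Ugt1a8 was at 0, 3.83, 0.754, 73.6 and 0.443 CPM in the control libraries at 7 weeks and at 0.393, 78.8, 57.2, 593 and 0.492 CPM in the periodontitis libraries. At 2 weeks it was at 76.1 CPM in control library 5 and at or under 0.0748 CPM in the other 9. The periodontitis library with 593 CPM of Ugt1a8 had 341 CPM of Ugt1a1 and 263 CPM of Ugt1a7c, the lowest of its group for both, while its locus sum of 1393 CPM lay within the range of the other 4. Ugt1a8 was called higher at 7 weeks in periodontitis pups (edgeR adjusted p = 0.00247), and its fold change is not given because the 2-week libraries held 4 counts. In control pups it was not called (edgeR adjusted p = 0.965), and without control library 5 at 2 weeks it was called higher at 7 weeks (edgeR adjusted p = 0.00726). How the shared reads were divided between these genes was not tested, and the sum does not depend on it. All 9 genes also overlap Gm20528 on the other strand, Ugt1a1 over 41.5% of its exon length. The strandedness of the libraries is not given, so the sum may depend on how reads shared with Gm20528 were assigned.

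**Figure D2:**
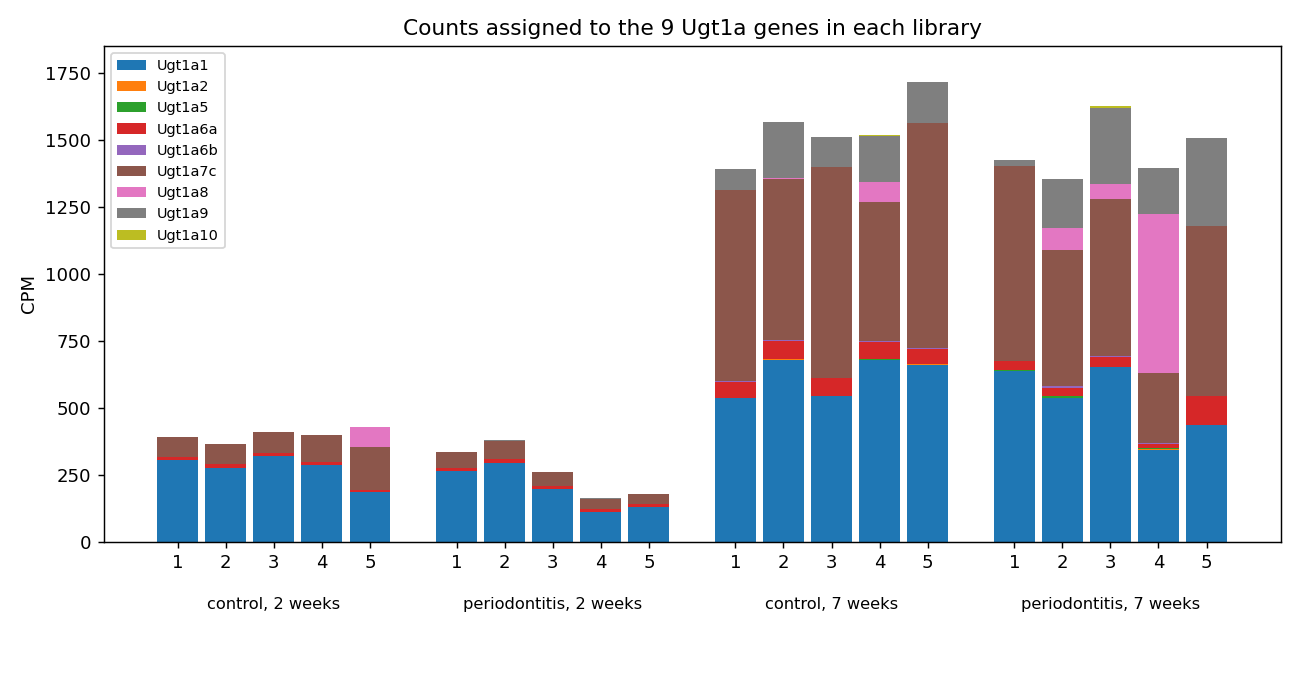
Stacked CPM of the 9 Ugt1a genes (vertical axis) in each of the 20 libraries, numbered within the 4 groups. The locus sum is at 162 to 429 CPM at 2 weeks and 1351 to 1718 CPM at 7 weeks, and the Ugt1a8 layer is at 593 CPM in periodontitis library 4 at 7 weeks and at or under 78.8 CPM elsewhere.

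The Ugt2 genes conjugate steroids, bile acids and fatty acid products, and all 6 that were tested rose in both kinds of pups. Ugt2b34 was the most abundant, at 495, 454, 484, 547 and 1600.3 CPM in control libraries at 2 weeks and 1606, 1644, 1252, 1666 and 2006 CPM at 7 weeks. Control library 5 at 2 weeks lay within the 7-week range, and the rise was log2 1.19 ± 0.38 (edgeR adjusted p = 0.0108), and 1.72 without that library. In periodontitis pups Ugt2b34 rose from 266 ± 167 to 1504 ± 219 CPM (log2 2.50 ± 0.40) without overlap. Ugt2a3 rose by log2 1.66 ± 0.48 in control pups and 3.10 ± 0.51 in periodontitis pups. Ugt2b35, Ugt2b36, Ugt2b38 and Ugt2b5 rose in both as well, in control pups by log2 1.91 ± 0.29, 1.28 ± 0.29, 2.71 ± 0.62 and 2.16 ± 0.38. Ugt2b5 summed with its near copies Ugt2b37 and Ugt2b38 rose by 2.17 ± 0.38.

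Sulfotransferases moved in both directions. Of the 9 tested Sult genes 3 rose and 4 fell in control pups, and 4 rose and 4 fell in periodontitis pups. These shares lie near those of all genes (27.1% rose and 34.4% fell, and 30.4% and 35.7%), so the counts are not a result about this family. Sult1d1, which sulfates catecholamines, rose from 367, 324, 310.5, 299 and 825 CPM to 1245, 1329.7, 639, 1292 and 1361 CPM in control libraries (log2 1.46 ± 0.29, edgeR adjusted p = 0.00027). Its ages overlapped through control library 5 at 2 weeks and control library 3 at 7 weeks. Sult1b1, which sulfates thyroid hormones and small phenols, rose from 411 ± 263 to 843 ± 148 CPM (log2 1.04 ± 0.31). Sult2b1, which sulfates cholesterol and pregnenolone, rose from 64.2 ± 20.3 to 288 ± 41.4 CPM (log2 2.16 ± 0.42).

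The Sult genes that fell had low levels at both ages. Sult1c2 went from 6.93, 8.47, 5.82, 7.40 and 15.3 CPM to 0.597, 0.981, 1.41, 0.856 and 1.17 CPM in control libraries, an 8.66-fold fall (log2 -3.12 ± 0.54, edgeR adjusted p = 6.98e-05). Sult1a1, the classical phenol sulfotransferase, was 4.32-fold lower (log2 -2.11 ± 0.26), also without overlap. Sult4a1, best known from brain, was 3.98-fold lower (log2 -1.99 ± 0.46), and Sult5a1 fell from 0.311 to 0.0314 CPM. All 4 fell in periodontitis pups too, Sult1c2 by log2 -2.06 ± 0.51 and by -3.39 without library 5 at 7 weeks. Sult6b2 stood at 199.9 ± 123 and 181 ± 56.4 CPM in control pups (log2 -0.14 ± 0.70, edgeR adjusted p = 0.872), although it was the third most abundant Sult gene per length, while in periodontitis pups it rose from 57.7 ± 63.4 to 190.1 ± 198 CPM (log2 1.72 ± 0.72, edgeR adjusted p = 0.0414). That call was lost in 9 of the alternative fits, among them those without periodontitis library 3, 4 or 5 at 2 weeks or library 1 or 5 at 7 weeks. Library 5 at 7 weeks was at 538 CPM where the others were at 79.9 to 166 CPM, and without it the value was 0.82 (edgeR adjusted p = 0.274). Sult6b1 was under 1 CPM on average at both ages and was not called.

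**Figure D3:**
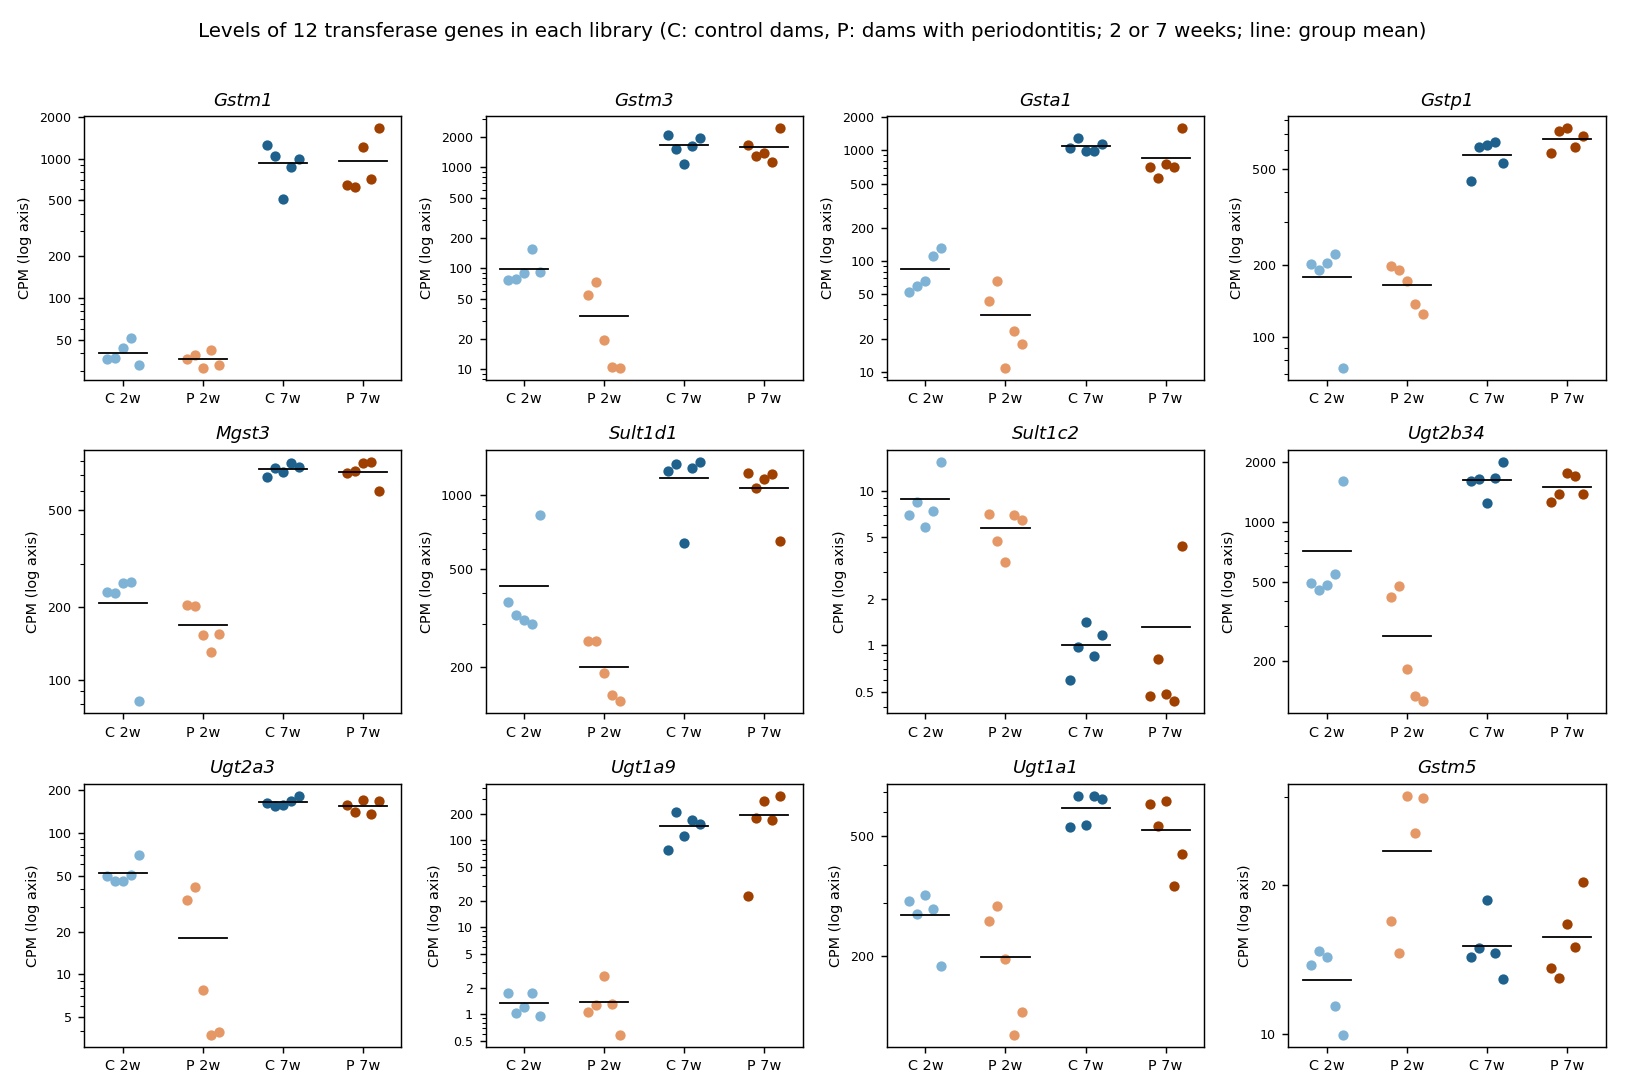
CPM of 12 members (log axis) in each library of the 4 groups, with the group mean as a line. The 7-week libraries of Gstm1, Gstm3, Gsta1 and Ugt1a9 lie above all 2-week libraries, Sult1c2 goes the other way, and Gstm5 has its highest group mean in the periodontitis libraries at 2 weeks.

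The 20 members below the filter were almost without counts in this tissue. Sult2a1 to Sult2a8, the bile acid and steroid sulfotransferases best known from liver, had 0 to 11 counts each over all 20 libraries, and Sult3a1 and Sult3a2 had 0. Sult1e1, the estrogen sulfotransferase, and Sult1c1 had 2 each, and Gstt4 had 7. Ugt2a1, Ugt2a2 and Ugt2b37 had 0, 5 and 3, Ugt3a1 and Ugt3a2 had 2 and 0, and Ugt2b1 had 79. Ugt1a10 had 233 counts, of which 229 were at 7 weeks in 3 libraries.

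Compared per kilobase of exon, the leading Gst gene changed with age. In control pups at 2 weeks Gsto1 led with 167 ± 16.6 CPM per kb (SD, n = 5) and 24.5% of the Gst sum, ahead of Gstp1 with 115 ± 37.9 and Gsta1 with 88.0 ± 36.8 CPM per kb. Gstp1 and Gsta1 did not differ beyond their spread, which held control library 5. Gstp1 was at 74.5 CPM there and 189 to 220.3 CPM in the other controls, and Gsta1 at 132 and 52.2 to 110.3 CPM. Per kb Gstp1 was above Gsta1 in each of those other controls. At 7 weeks Gstm3 and Gsta1 led with 1271 ± 307 and 1144 ± 133 CPM per kb, which did not differ beyond their spread either, followed by Gstm1 with 633 ± 184. Mgst3 led Mgst1 and Mgst2 at both ages. Sult1d1 and Sult1b1 led the Sult genes at 2 weeks with 173 ± 91.5 and 148 ± 94.7 CPM per kb, within each other's spread, and at 7 weeks with 477 ± 123 and 303 ± 53.1. Ugt2b34 and Ugt1a1 led the Ugt genes in control pups at both ages. They stood at 166 ± 115 and 123 ± 23.3 CPM per kb at 2 weeks, within each other's spread, and at 379 ± 62.0 and 278 ± 33.1 at 7 weeks. The 2-week mean of Ugt2b34 held control library 5 at 1600.3 CPM, where the others were at 454 to 547 CPM. Control libraries 1 to 4 held 495, 454, 484 and 547 CPM of Ugt2b34 over 4.312 kb of exon. They held 304, 276, 318 and 287 CPM of Ugt1a1 over 2.224 kb, so that per kb Ugt1a1 was the higher in each of them. In periodontitis pups at 2 weeks Ugt1a1 also came first by mean, with 89.2 ± 35.9 CPM per kb against 61.8 ± 38.7 for Ugt2b34. The order is thus not shown to differ between the kinds of pups.

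Genes that supply the donors and handle the conjugates are read here against all genes, of which 27.1% rose and 34.4% fell in control pups. Of 7 genes for UDP-glucuronic acid supply 5 rose and 0 fell in control pups. Ugdh, which makes UDP-glucuronic acid, rose from 272 to 1145 CPM (log2 2.07 ± 0.18), and Slc35d1, its carrier into the endoplasmic reticulum, by 2.03 ± 0.15. Of 10 genes of glutathione supply 6 rose and 1 fell; Gss, the second enzyme of synthesis, rose by log2 1.00 ± 0.26 and Gclm, the modifier subunit of the first, by 0.79 ± 0.27 (1.29 without control library 5 at 2 weeks). Gclc, the catalytic subunit, was at 40.5, 40.9, 45.7, 39.7 and 136 CPM in control libraries at 2 weeks and 86.3, 82.7, 44.7, 76.3 and 99.8 CPM at 7 weeks. It was not called with all libraries (log2 0.37 ± 0.30, edgeR adjusted p = 0.293), and without control library 5 at 2 weeks it rose by 0.90 (edgeR adjusted p = 0.000394). Of 10 genes of sulfate donor supply 4 rose and 1 fell, and without control library 5 at 2 weeks 6 rose and 2 fell. Papss1, which makes PAPS, fell (log2 -1.68 ± 0.16). Its paralog Papss2 was at 463, 376, 478, 614 and 1799 CPM in control libraries at 2 weeks and 1159, 1341, 2241, 1599 and 1420.1 CPM at 7 weeks. It was not called with all libraries (log2 1.06 ± 0.53, edgeR adjusted p = 0.0877), and without control library 5 at 2 weeks it rose by 1.68 (edgeR adjusted p = 0.00662). Of 8 exporters, Abcc2, Abcc3 and Abcg2 rose and Abcc1 and Abcc4 fell, shares not far from those of all genes. Of 7 genes that remove conjugates 3 rose and 3 fell, and Gusb, the lysosomal beta-glucuronidase that undoes glucuronidation, fell by 1.25 ± 0.33 on the log2 scale. Of 11 partners in the oxidative-stress response 9 rose, among them Nqo1 (log2 1.64 ± 0.20) and Ephx1 (4.11 ± 0.35), and Hmox1 fell.

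Markers of the tissue's cells moved with age too. Of 12 enterocyte markers 10 rose and 0 fell in control pups (median log2 1.09), and all 8 markers of the weaned enterocyte rose (median 1.69). Of 13 markers of the suckling enterocyte 8 fell and 3 rose, 5 of 6 smooth muscle markers fell (median -1.15), and all 9 exocrine pancreas markers fell. Summed enterocyte markers were 27306 to 41014 CPM in control libraries at 2 weeks and 65742 to 111631 CPM at 7 weeks, and in periodontitis libraries 36649 to 51327 and 42389 to 108477 CPM. Of 8 hepatocyte markers tested, a list that matters because liver makes many of these enzymes, 5 fell and 1 rose, with sums of 573 to 862 CPM in control libraries at 2 weeks and 211 to 378 CPM at 7 weeks. Cps1 alone made most of these sums, at 556 to 840 CPM and 203 to 370.5 CPM. At 2 weeks Ttr and Serpina1a came next, at 9.71 to 18.5 CPM and 3.86 to 22.5 CPM. Alb was at or under 0.361 CPM in the control libraries of both ages. Of 9 markers of proximal intestine 7 rose and 2 fell, and of 10 of distal intestine 1 rose and 7 fell. Among the distal markers, Fgf15 was at 39.5 to 126 CPM in the 2-week libraries and at 0 CPM in every 7-week library. In control libraries Fabp6 was at 197 to 510 CPM at 2 weeks and at most 0.724 CPM at 7 weeks. Slc10a2 was at 14.1 to 167 CPM and 1.72 to 2.86 CPM in the same libraries. Other markers of these lists went the other way. Distal Muc13 was at 1308 to 1678 CPM in control libraries at 2 weeks and 3894 to 4626 CPM at 7 weeks. The summed distal list was at 2513 to 3074 and 4362 to 5109 CPM in these libraries. Proximal Slc40a1 was at 814 to 1359 and 100 to 194 CPM, and proximal Cybrd1 at 547 to 860.4 and 65.4 to 99.2 CPM. The labels give no segment at either age. The part of these cell types and of the segment in the rise of the transferases was not tested.

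At 2 weeks 0 of the 47 members passed the threshold between periodontitis and control pups by edgeR, where 5 of 17464 genes (0.0286%) did. By unadjusted p, 21 members were under 0.05 (44.7%, all genes 14.4%), 4 of them higher and 17 lower in periodontitis pups. Fold changes were below 0 in 30 of the 47 (63.8%, all genes 47.3%), and the median log2 fold change was -0.30 against 0.02 over all genes. DESeq2 called 12 members (3.18% of all genes), limma-voom 5 (1.31%), and edgeR called 7 without periodontitis library 2 (2.18%). The 12 of DESeq2 were Gsta1, Gstm3, Gstm6, Sult1b1, Sult1d1, Ugt1a7c, Ugt1a8, Ugt2a3 and Ugt2b34, all lower, and Gstm5, Gsto2 and Gstp3, all higher in periodontitis pups.

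The lower members had wide spread among the periodontitis pups. Gstm3 was at 76.8, 77.5, 89.7, 157 and 92.0 CPM in control libraries and at 54.7, 73.3, 19.2, 10.4 and 10.3 CPM in periodontitis libraries 1 to 5. The groups did not overlap, libraries 1 and 2 were close to the controls and libraries 3 to 5 far below (log2 -1.55 ± 0.44, edgeR adjusted p = 0.116). Gsta1 was at 44.1, 66.1, 10.9, 23.6 and 18.0 CPM in the periodontitis libraries (log2 -1.37 ± 0.39, edgeR adjusted p = 0.118), overlapping the controls through library 2. The pooled Gsta1 group gave log2 -1.05 ± 0.36 (edgeR adjusted p = 0.186). Ugt2a3 was at 49.3, 45.8, 45.8, 50.6 and 70.4 CPM in controls and 33.3, 41.7, 7.71, 3.73 and 3.93 CPM in periodontitis libraries, again with libraries 3 to 5 lowest (log2 -1.53 ± 0.48, edgeR adjusted p = 0.145). Sult6b2 was at 136, 110.1, 118, 234 and 401 CPM in controls and 114, 139, 18.7, 9.12 and 7.87 CPM in periodontitis libraries (log2 -1.79 ± 0.72, edgeR adjusted p = 0.259). Sult2b1 was at 57.2, 59.6, 17.8, 10.7 and 12.9 CPM in periodontitis libraries against 35.1 to 92.1 CPM in controls.

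Sult1d1 and Ugt1a7c were lower in all 5 periodontitis libraries than in any control. Sult1d1 was at 256, 254, 189.6, 154 and 145 CPM against 299 to 825 CPM (log2 -1.09 ± 0.29, edgeR adjusted p = 0.0928, and -0.70 without control library 5), and Ugt1a7c at 60.1, 69.8, 52.8, 39.1 and 35.0 CPM against 73.5 to 160.3 CPM (log2 -0.92 ± 0.27, edgeR adjusted p = 0.119). In all, 4 members were lower without overlap (8.51%, all genes 3.54%), namely these, Gstm3 and Ugt2a3, and 1 was higher without overlap (2.13%, all genes 3.71%), Gsto2. Ugt2b34 was at 419, 475, 181, 133 and 125 CPM in periodontitis libraries against 454 to 1600.3 CPM (log2 -1.43 ± 0.38, edgeR adjusted p = 0.0965), and Sult1b1 gave log2 -1.01 ± 0.31. Without control library 5 these were -0.89 and -0.53. The Ugt1a locus sum was at 334, 378, 261, 162 and 177 CPM in periodontitis libraries against 365 to 429 CPM in controls (log2 -0.60 ± 0.19, edgeR adjusted p = 0.143). Ugt1a8 reads as lower (edgeR unadjusted p = 0.00824), with 76.1 CPM in control library 5 and at most 0.066 CPM in the other controls.

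Gstm5 and Gstp3 went the other way in the same libraries. Gstm5 was at 13.8, 14.7, 14.3, 11.4 and 9.98 CPM in controls and 16.9, 14.6, 30.2, 25.4 and 29.9 CPM in periodontitis libraries (log2 0.86 ± 0.20, edgeR adjusted p = 0.0591), the smallest adjusted p of any member. Without periodontitis library 2 its adjusted p was 0.012, and without periodontitis library 1 it was 0.0419. Of the exon length of Gstm5, 13.9% overlaps 4933431E20Rik on the other strand, and the strandedness of the libraries is not given. Gstp3 was at 9.32, 8.07, 9.46, 5.92 and 4.83 CPM in controls and at 10.2, 8.35, 19.7, 21.2 and 20.3 CPM in periodontitis libraries (log2 1.08 ± 0.28, edgeR adjusted p = 0.0896). Gsto2 had 41 counts in the controls and 119 in the periodontitis libraries (log2 1.18 ± 0.32, edgeR adjusted p = 0.0969). Gstm1, Gstz1 and Gstt3 differed little between the groups, with means of 40.3 and 36.5, 36.3 and 36.8, and 29.3 and 29.0 CPM.

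**Figure D4:**
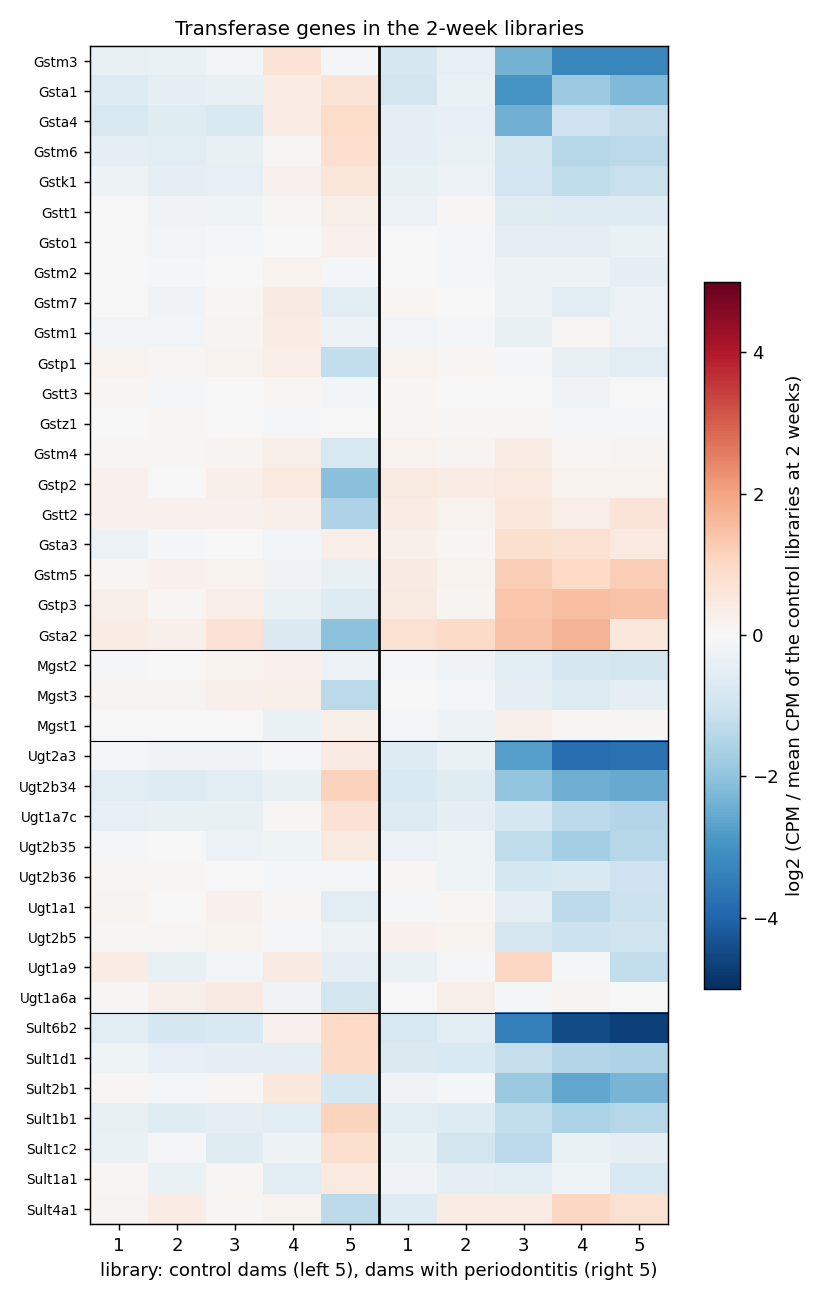
Log2 ratio of CPM to the mean of the control libraries at 2 weeks (colour), for the 39 members with means of at least 1 CPM in both 2-week groups, in 5 control libraries (left) and 5 periodontitis libraries (right). Periodontitis libraries 3 to 5 are darkest blue for Gstm3, Ugt2a3 and Sult6b2 and red for Gstm5 and Gstp3, while libraries 1 and 2 are close to the controls, and control library 5 is off in several rows.

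Markers of enterocyte maturity varied in the same libraries. Summed markers of the weaned enterocyte were 4051, 3676, 3993, 4642 and 6695 CPM in control libraries at 2 weeks and 3079.7, 3416, 1663, 1316 and 1347 CPM in periodontitis libraries, and all 8 had fold changes below 0 (median log2 -0.86). Summed markers of the suckling enterocyte were 3583, 3115, 3648, 2128 and 1672 CPM in controls and 4743, 3605, 7769.6, 7481 and 8364 CPM in periodontitis libraries (median log2 1.02). Summed enterocyte markers were 27306 to 41014 and 36649 to 51327 CPM. In these lists edgeR called 0 of 8, 0 of 13 and 0 of 12 markers, and without periodontitis library 5 at 7 weeks it called 1 weaned marker lower and 4 suckling markers higher. Without control library 5 at 2 weeks it called 0 weaned markers and 2 suckling markers, both higher. Other cell types varied as well. Summed smooth muscle markers were 1679.8 to 2238 CPM in controls and 1036, 1998, 2264, 3503 and 2911 CPM in periodontitis libraries, with 0 of 6 fold changes below 0. The median log2 fold change was 0.74 over 8 hepatocyte markers and -2.06 over 5 adipocyte markers, with 0 called in either list (4 hepatocyte markers higher and 2 adipocyte markers lower without periodontitis library 5 at 7 weeks). Without control library 5 at 2 weeks 0 were called in either of these lists. Fold changes were below 0 in 8 of 9 markers of proximal intestine and 6 of 10 of distal intestine. Their medians were log2 -0.15 and -0.14, and 0 were called. Fabp6, a distal marker, was at 365, 328, 17.5, 2.92 and 8.07 CPM in periodontitis libraries against 197 to 510 CPM in controls. Cybrd1, a proximal marker, was at 492, 499.8, 70.5, 58.1 and 103 CPM against 547 to 860.4 CPM. Distal Fgf15 was at 55.2 to 126 CPM against 39.5 to 65 CPM. The part of these cell types and of the segment in the transferase levels was not tested. The donor, export and removal lists also had 0 genes called at 2 weeks with all libraries. Without periodontitis library 5 at 7 weeks 1 gene of sulfate donor supply was called lower.

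At 7 weeks 0 members were called between periodontitis and control pups by edgeR (all genes 0.0115%), and DESeq2 called 0. By unadjusted p 1 member, Ugt1a5, was under 0.05 (2.13%, all genes 3.33%), with 96 counts in the control and 254 in the periodontitis libraries (log2 1.71 ± 0.62). The median log2 fold change was 0.09, against 0.02 over all genes, with 16 of 47 members below 0. Without periodontitis library 5 it was -0.04, with 28 members below 0 and 4 under an unadjusted p of 0.05. The groups overlapped for all 47 members (without overlap over all genes, 0.246% higher and 0.281% lower). Gstm3, Gsta1 and Ugt2a3 had mean levels of 1666 and 1586, 1094 and 863, and 166 and 155 CPM in control and periodontitis pups. For Gsta1 the groups overlapped only through periodontitis library 5 at 1581 CPM, as the other 4 libraries, at 568 to 749 CPM, lay below every control at 982 to 1295 CPM. Without that library the value was log2 -0.68, against -0.34 ± 0.39 with it, and it was not called. Summed adipocyte markers were 8.52 to 19.8 CPM in controls and 34.4, 27.7, 35.4, 87.4 and 14.8 CPM in periodontitis libraries, overlapping only through library 5. Over the 5 adipocyte markers tested the median log2 fold change was 4.42. Of these edgeR called 0 with all libraries and 3 higher without periodontitis library 5. The difference of the dam comparison between ages was called for 2 of them, and for 4 without that library. Their part in the transferase levels was not tested. The members next in order of p were Gsto1 (log2 -0.23 ± 0.13), Ugt1a8, Gsto2, Ugt1a6a (-0.51 ± 0.34), Ugt1a7c (-0.35 ± 0.27), Gstt1 (-0.20 ± 0.16), Sult5a1, Sult4a1 and Ugt1a1 (-0.25 ± 0.24), each with an edgeR adjusted p of 1. Ugt1a6a was at 107 CPM in periodontitis library 5, and without that library and control library 5 at 2 weeks it was called lower (log2 -1.13, edgeR adjusted p = 0.0092).

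The difference of the dam comparison between the ages was called for 0 members (all genes 0.0229%). By unadjusted p 13 were under 0.05 (27.7%, all genes 8.8%), and the median was 0.40, against 0.01 over all genes. The smallest unadjusted p-values after that of Ugt1a8 were those of Gstm5 (log2 -0.80 ± 0.28), Mgst2 (0.61 ± 0.24), Gstm6 (0.85 ± 0.34), Gsta2 (-1.40 ± 0.55) and Sult1b1 (1.11 ± 0.44), followed by Gstk1, Ugt2b34, Gstm3 and Sult1d1. The edgeR adjusted p of these 9 ran from 0.486 to 0.553. That members lay lower in periodontitis pups at 2 weeks and not at 7 weeks is thus not shown to be a difference between the ages.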

How the data were processed

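PolyA RNA-seq of small intestine was analysed in 20 libraries, 5 in each of 4 groups taken from the labels. The authors deposited one table of expected counts, estimated by RSEM for each gene and already whole. Cutadapt 4.8, FastQC 0.11.8, STAR 2.7.8a, RSEM 1.3.3 and the builds GRCh38 and GRCm38 are listed in the submitters' processing notes. The annotation release and the strandedness are not given in the sources used here. RSEM divides reads that fit several genes by a model, so levels of near copies depend on that model. Of the 55491 lines, 4 name no mouse gene and hold 0 counts. Coordinates and exon lengths come from GENCODE M21 (GRCm38), to which 260 gene IDs did not match.

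Counts were analysed with edgeR 4.0.16 in R 4.3.3 (filterByExpr, TMM, robust quasi-likelihood fit of 1 mean per group over 20 libraries, 16 residual degrees of freedom). This left 17464 genes, over which p-values were adjusted by Benjamini-Hochberg with a threshold of 0.05. Each SE was derived from the fold change and its F statistic. Levels are CPM on the TMM-scaled library size. No per-sample column was left unused. Fits of DESeq2 1.42.0 and limma 3.58.1 (voom), other filters and scalings, a replicate block and fits without each library were alternatives. Named genes are, per comparison of ages, up to 10 called members per direction with the largest change and at least 1 CPM; per dam comparison, the 10 smallest p; the 3 highest levels per family; and members that complete a subfamily. The members and lists were chosen with earlier results of these data known.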

Additional observations from a re-analysis of the deposited data

Results flagged for a closer look

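Of 116 groups of 5 libraries checked, over 34 named genes, 22 had a highest or lowest library whose gap to its neighbour passed Dixon's 95% critical ratio of 0.71. Chance flags about 5% of groups. Control library 5 at 2 weeks accounted for 9 of them: Ugt2b34 at 1600.3 CPM, Sult1b1 at 881, Sult1d1 at 825, Ugt1a8 at 76.1 and Sult1c2 at 15.3 CPM were the highest of their group, and Mgst3 at 82.0, Gstp1 at 74.5, Gstm4 at 7.16 and Sult4a1 at 0.966 CPM the lowest. Periodontitis library 5 at 7 weeks accounted for 5, with Gsta1 at 1581, Sult6b2 at 538, Ugt1a6a at 107 and Sult1c2 at 4.37 CPM the highest and Sult1d1 at 652 CPM the lowest. The library set apart in the remaining 8 was control library 3 at 7 weeks for Sult1d1 (639 CPM) and Mgst2 (159 CPM), and periodontitis library 4 at 7 weeks for Gstt1 (116 CPM) and Ugt1a8 (593 CPM). It was control library 4 at 7 weeks for Ugt1a8 (73.6 CPM), control library 4 at 2 weeks for Gstm3 (157 CPM), periodontitis library 2 at 7 weeks for Ugt1a6b (7.42 CPM) and periodontitis library 3 at 2 weeks for Gstm4 (16.4 CPM).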

How the results depend on the processing

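The number of members called for the dam comparison at 2 weeks was 0 by edgeR, 12 by DESeq2 and 5 by limma-voom, and 2 (Gstm5 and Mgst3) without both libraries that stand apart. Leaving out 1 library at a time gave 0 to 7, with 7 without periodontitis library 2 and 1 (Gstm5) without periodontitis library 1 at 2 weeks or periodontitis library 5 at 7 weeks. Over all genes edgeR, DESeq2, limma-voom and the fit without both gave 5, 586, 228 and 361 calls, and 0 to 387 when leaving out 1 library. At 7 weeks the count was 0, and 1 (Ugt1a6a) without both libraries that stand apart. Over all genes, edgeR called 2 there, DESeq2 28 and the fit without both 32, and for the difference between ages 4, 65 and 159. Leave-one-out counts were 39 to 42 for age in control pups, 40 to 44 for age in periodontitis pups, and 0 to 0 for the dam comparison at 7 weeks and for the difference between ages. Over all genes these fits called 10013 to 12408, 10794 to 13378, 0 to 15 and 1 to 26. The fall of Gstm5 with age in periodontitis pups missed the threshold without periodontitis library 3 or 5 at 2 weeks (adjusted p = 0.0527 and 0.051). In all, 6751 values were set against the main fit, over the 47 tested members, 5 comparisons, every setting run and the sums of genes with shared reads. No called direction reversed, and 36 values lost their call: those of Gsta2, Gstm5, Sult6b2 and Ugt1a2 with age in periodontitis pups and of Gstt2 and Mgst1 with age in control pups. Only values called in the main fit could lose a call. That fit called 40 and 43 members for age in control and periodontitis pups, and 0 in the dam comparisons and their difference. Of the values not called in the main fit, 139 changed sign without a call and 40 became calls. Without division by exon length, Gsto1 held 31.2% of the Gst sum at 2 weeks, Mgst3 48.8% of the Mgst sum and Ugt2b34 53.1% of the Ugt sum. In fits of the pathway lists chosen after seeing the data, leaving out control library 5 at 2 weeks turned the uncalled age values of Slc35b2 and Impad1 in control pups to calls of the opposite sign (log2 -0.22 and 0.37, where Impad1 was at -0.17 without periodontitis library 5 at 7 weeks), and Dpep1 missed the threshold (adjusted p = 0.0525); the cause was not tested.

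Deviations of same-numbered control and periodontitis libraries correlated above 0.1 in 0 of 5 pairs at 2 weeks and 2 of 5 at 7 weeks, where they ran from -0.397 to 0.288. Libraries of unlike number were not compared, so this check cannot show whether replicate numbers pair the libraries. With a replicate block 0 members were called in both dam comparisons and in their difference, and 39 and 41 members for age in control and in periodontitis pups. Over all genes that fit called 0 in the dam comparisons and their difference, and 59.6% and 64.1% for age. The labels name no litter, so libraries that share one cannot be recognised.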
